A study of Mus musculus with 8 samples.

Results

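The 7 genes described here encode giant linker proteins of the cytoskeleton: Macf1, Dst, Nav2, Nav3, Syne1, Syne2 and Utrn. They are 7 of the 35583 genes in the deposited count table, found by their symbols, and all 7 were among the 13277 genes expressed highly enough to be tested. They were chosen with results of the plasma-positive against plasma-negative comparison known, so their own changes in that comparison are given as a description, without p-values. RNA was measured by bulk sequencing in microglia, the resident macrophages of the brain, isolated by sorting from the hypothalamus of wild-type young mice, 20 hours after the animals received plasma protein carrying a dye. The 4 plasma-negative libraries hold microglia without the dye-labelled protein and the 4 plasma-positive libraries hold microglia that carried it, and all 8 share the genotype, the injection and the time. Libraries were made with Smart-seq2, a full-length protocol without molecular identifiers. The labels do not say whether the 8 libraries came from separate animals, nor how the plasma signal was gated, so p-values measure only the spread between these libraries, which may be technical.

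Giant linkers join cytoskeletal filaments to each other and to membranes. Spectraplakins such as Macf1 and Dst bind actin through one end and microtubules through the other, navigators travel on growing microtubule ends, nesprins (Syne1 and Syne2) anchor the nucleus through SUN proteins of the inner nuclear membrane, and utrophin ties cortical actin to the dystroglycan receptor for matrix. Microglia extend and retract branched processes and take up material from their surroundings, activities that use actin and microtubules. The genes share very long messenger RNAs, and so the values below are set beside those of other genes of like exon length, the total of all annotated exon bases of a gene.

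Library totals ranged from 2963094 to 21422738 counts, the lowest being plasma-negative replicate 4. The microglial list of 10 markers (such as P2ry12 and Tmem119) summed to 60793 to 71574 CPM (counts relative to library size after TMM normalization) in plasma-negative and 67075 to 72107 CPM in plasma-positive libraries. Plasma-negative replicates 1 to 3, at 60793 to 62165 CPM, lay below every plasma-positive library, and replicate 4 was the highest of its group. The part of this in the results below was not tested. Csf1r, the receptor for the survival factor of microglia, was the 1 marker of that list called different (log2 change 0.28, SE 0.04, adjusted p = 0.00490 by edgeR's quasi-likelihood test, n = 4 per group), though not after a correction for exon length and GC content. Lists of 8 astrocyte and 8 endothelial markers overlapped between the groups, at 209 to 328 and 20.4 to 65.1 CPM summed. Oligodendrocyte markers summed to 158 to 230 CPM in plasma-negative and 222 to 533 CPM in plasma-positive libraries, with the lineage regulator Sox10 at no more than 3 counts in any library. Neuronal markers reached 348 CPM in plasma-positive replicate 2 and 83.9 CPM in replicate 1, against 35.0 CPM or less in the other 6 libraries. Markers of blood monocytes and neutrophils reached 516 CPM in plasma-positive replicate 3 and 13.9 CPM or less elsewhere, with Plac8 and Ly6g at no more than 3 counts everywhere. Pericyte and border macrophage lists stayed at 16.5 CPM or less, with Kcnj8, Abcc9, Cd163, Lyve1 and F13a1 at no more than 3 counts. In bulk RNA, fewer cells of a type and less RNA per cell cannot be told apart.

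Macf1, Dst, Nav2 and Nav3 were lower in plasma-positive microglia, by 37.2% to 57.2% as fitted by edgeR. In each of them every plasma-positive library lay below every plasma-negative one. After 1 of the length corrections described further on the log2 change of Dst was 0.02. Syne1, Syne2 and Utrn overlapped between the groups and were not called. The call, an adjusted p under 0.05 by edgeR over all tested genes, was met by 4 of 7 in the lower direction and by 0 in the higher. Among all tested genes, 0.565% were called lower and 0.844% higher, 1.41% in either direction, and 4.59% were lower in every plasma-positive library. With library totals in place of TMM factors the split turned, with 1.23% called lower and 0.482% higher, and the same 4 of the 7 genes were called lower. The calls ended, at 0 of 7, with limma on the deposited RPKM values. There, 0.444% (log2(RPKM + 1)) and 0.467% (log2(RPKM + 0.1)) of all genes were called lower. They also ended, at 0 of 7, under every length correction, where 0.00753% to 0.188% of all genes were called lower. With the replicate number as a block 2 of 7 were called, Macf1 and Nav2, beside 0.166% of all genes. Since the genes were chosen on this comparison, nothing is read from the difference between these shares. The 7 genes together took 0.126% ± 0.0161 of the counts of a plasma-negative library and 0.0650% ± 0.00235 of those of a plasma-positive one (SD, n = 4). Gene counts made up 68.9% to 74.6% of the total that scales the deposited RPKM values in the plasma-negative group and 81.4% to 84.2% in the plasma-positive group, without overlap. The part of this in the results was not tested.

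**Figure D1:**
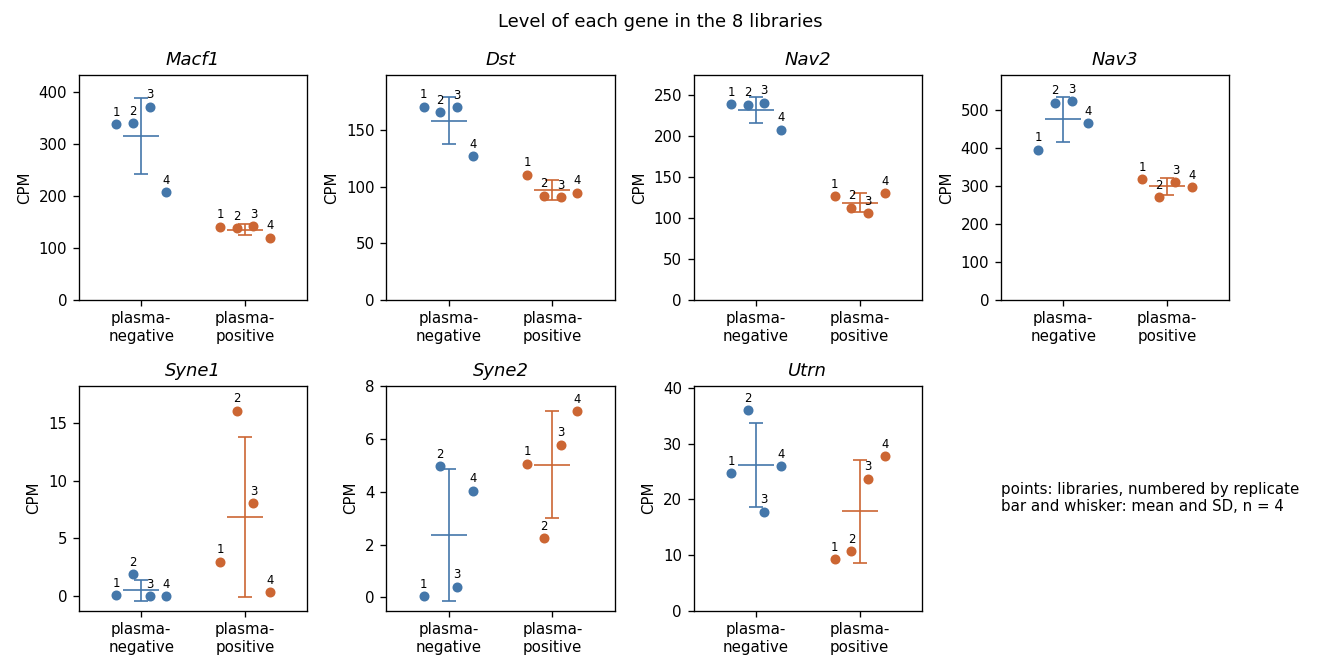
Level in CPM (vertical axis, from 0) of each of the 7 genes in the plasma-negative (blue) and plasma-positive (orange) libraries, 1 point per library numbered by replicate, with the mean and SD of 4. The groups are separate for Macf1, Dst, Nav2 and Nav3 and overlap for Syne1, Syne2 and Utrn.

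Macf1 (ENSMUSG00000028649, chr4:123349633-123684360 on the minus strand, mouse build GRCm38) has 106 exon blocks that add up to 31402 bases. Its protein, also called ACF7, guides microtubules along actin fibres toward the cell edge. Macf1 stood at 338, 339.9, 371 and 207 CPM in plasma-negative replicates 1 to 4 and at 141, 137, 142 and 119 CPM in plasma-positive replicates 1 to 4. The plasma-positive libraries were close together, while plasma-negative replicate 4, the shallowest library, was below the other 3 of its group yet above all plasma-positive ones. The mean was 314 ± 73.0 CPM in plasma-negative and 135 ± 10.5 CPM in plasma-positive microglia (SD, n = 4), a log2 change of -1.22 (SE 0.17). Without plasma-negative replicate 4 the log2 change was -1.38 (SE 0.11).

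Dst (ENSMUSG00000026131, chr1:33908225-34308661, plus strand) encodes dystonin, the spectraplakin whose loss in mice causes the movement disorder dystonia musculorum. At 41155 exon bases in 106 blocks it is the longest of the 7 by this measure. Dst stood at 171, 166, 171 and 127 CPM in plasma-negative and at 111, 92.1, 91.1 and 95.0 CPM in plasma-positive replicates. Here too plasma-negative replicate 4 was the lowest of its group, and it lay between the other plasma-negative libraries and the highest plasma-positive one. Mean CPM was 159 ± 21.2 against 97.2 ± 9.25 (SD, n = 4), for a log2 change of -0.71 (SE 0.15). Exons of 2 noncoding genes on the opposite strand, Gm26788 and A930005N03Rik, cover 2.52% and 1.11% of the Dst exon bases. They had 3 to 248 and 2 to 158 counts per library, against at least 378 for Dst, and whether counting used strand is not given in the sources used here. The call of Dst was the least steady of the 4: with 1 library left out at a time it was met in 1 of 8 fits, the one without plasma-negative replicate 4 (log2 change -0.80), and in the other 7 the change was -0.78 to -0.67.

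The RefSeq promoter windows of the 2 spectraplakins (build GRCm38.p6, 250 bases before to 50 after an annotated start) are shown because both genes were lower together, and because a pair of Dst starts differ in base composition. Capitals mark matches on either strand to the GC box GGGCGG, the CCAAT box CCAAT, the core GAGGAA bound by PU.1-type factors and the TATA box TATAAA. These 4 motifs do not overlap each other in the windows shown. The Macf1 window lies at chr4:123684311-123684610 (minus strand) and the Dst windows at chr1:34011345-34011644 and chr1:34160010-34160309 (plus strand), both inside the annotated span of Dst.
Macf1: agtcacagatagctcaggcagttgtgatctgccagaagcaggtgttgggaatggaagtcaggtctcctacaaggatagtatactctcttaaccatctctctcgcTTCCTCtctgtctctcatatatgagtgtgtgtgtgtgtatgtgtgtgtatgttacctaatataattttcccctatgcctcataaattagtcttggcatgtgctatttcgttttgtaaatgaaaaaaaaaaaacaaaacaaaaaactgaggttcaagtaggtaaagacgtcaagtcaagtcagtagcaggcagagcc
Dst, first window: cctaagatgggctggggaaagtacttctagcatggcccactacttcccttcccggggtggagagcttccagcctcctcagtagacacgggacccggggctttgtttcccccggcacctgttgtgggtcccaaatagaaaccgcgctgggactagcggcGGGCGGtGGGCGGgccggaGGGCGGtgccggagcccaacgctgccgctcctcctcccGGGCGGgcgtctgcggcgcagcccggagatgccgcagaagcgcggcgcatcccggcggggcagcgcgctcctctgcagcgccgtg
Dst, second window: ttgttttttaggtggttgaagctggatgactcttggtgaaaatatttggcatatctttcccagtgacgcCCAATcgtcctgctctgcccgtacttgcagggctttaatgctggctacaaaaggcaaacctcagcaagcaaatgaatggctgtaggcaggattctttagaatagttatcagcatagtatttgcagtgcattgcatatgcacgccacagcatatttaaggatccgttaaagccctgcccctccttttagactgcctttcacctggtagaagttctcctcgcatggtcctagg

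The Macf1 window has 40.3% G and C, 3 CG dinucleotides and 1 match to the PU.1-type core. The first Dst window has 70.3% G and C, 31 CG dinucleotides and 4 GC boxes, and the second has 46% G and C, 6 CG dinucleotides and 1 CCAAT box. Over all 32851 windows the median was 52.7% G and C with 7 CG dinucleotides, and 35.7% held a GC box, 37.4% a CCAAT box, 28.3% the PU.1-type core and 13.6% a TATA box. None of the 3 windows holds TATAAA. The gene-level counts do not separate transcripts from different starts.

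Nav2 (ENSMUSG00000052512, chr7:48908716-49610090, plus strand) and Nav3 (ENSMUSG00000020181, chr10:109681259-110456204, minus strand) encode neuron navigators, which ride on growing microtubule ends and are best known from axon growth. Nav2 has 32228 exon bases in 50 blocks, but its longest annotated transcript is only 11317 bases. Nav3 has 15207 exon bases in 43 blocks and a longest transcript of 9962 bases. The deposited RPKM values of Nav3 imply a model 8.74% longer than this annotation, and those of Nav2 the same length.

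Nav2 stood at 239, 238, 241 and 208 CPM in plasma-negative and at 126, 112, 106 and 129.8 CPM in plasma-positive replicates. Relative to the mean it had the tightest plasma-negative group of the 7 (coefficient of variation 6.83%), with replicate 4 again the lowest and above all plasma-positive libraries. The mean was 232 ± 15.8 against 119 ± 11.2 CPM (SD, n = 4), a log2 change of -0.97 (SE 0.12). Gm2788, a noncoding gene on the same strand, shares 0.915% of the Nav2 exon bases and had 0 to 10 counts per library.

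Nav3 was the most abundant of the 7 in CPM, at 395, 519.8, 524 and 466 CPM in plasma-negative and 319, 269.9, 310.2 and 297 CPM in plasma-positive replicates. In Nav3 the lowest plasma-negative library was replicate 1, not replicate 4 as in Macf1, Dst and Nav2. The mean was 476 ± 60.0 against 299 ± 21.4 CPM (SD, n = 4), a log2 change of -0.67 (SE 0.11). Macf1 and Nav2 kept their call in 8 of 8 fits that left out 1 library, and Nav3 in 4 of 8, where those fits called 0.145% to 0.551% of all genes lower. Nav3 lost it without plasma-negative replicate 2 or 3 or plasma-positive replicate 2 or 4, with log2 changes of -0.67 to -0.62 there.

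The 2 RefSeq windows of Nav2 (chr7:48958823-48959122 and chr7:49245939-49246238, plus strand) are shown with the same motifs in capitals, since its starts lie far apart and Nav2 was lower along with the spectraplakins. In all, 6 of the 7 genes matched an entry of the promoter table.
Nav2, first window: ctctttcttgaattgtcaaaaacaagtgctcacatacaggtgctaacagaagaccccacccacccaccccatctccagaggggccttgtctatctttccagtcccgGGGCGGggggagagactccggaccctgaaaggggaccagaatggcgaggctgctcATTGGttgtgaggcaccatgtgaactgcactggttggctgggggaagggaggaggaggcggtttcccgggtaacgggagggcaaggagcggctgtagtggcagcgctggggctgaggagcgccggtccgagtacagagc
Nav2, second window: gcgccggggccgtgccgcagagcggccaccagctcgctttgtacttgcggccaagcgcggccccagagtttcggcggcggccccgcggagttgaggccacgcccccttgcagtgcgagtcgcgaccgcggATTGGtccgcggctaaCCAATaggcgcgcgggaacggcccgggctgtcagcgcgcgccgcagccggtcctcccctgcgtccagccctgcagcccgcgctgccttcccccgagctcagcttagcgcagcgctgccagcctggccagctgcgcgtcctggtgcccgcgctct

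The first Nav2 window has 60.7% G and C, 12 CG dinucleotides, 1 GC box and 1 CCAAT box. The second has 74.7% G and C, 42 CG dinucleotides and 2 CCAAT boxes, 1 on each strand. Across the 5 windows of the 3 genes, no motif searched was present in all of them. These matches describe letters in the windows and are not evidence of factor binding.

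Syne1 (ENSMUSG00000096054, chr10:5020917-5551482, minus strand, 40491 exon bases) and Syne2 (ENSMUSG00000063450, chr12:75818134-76110926, plus strand, 26726 exon bases) encode nesprin-1 and nesprin-2. Both were weakly expressed, and Syne1 was at or under 3 counts in 4 of the 8 libraries. Syne1 had 2, 30, 0 and 0 counts in plasma-negative and 27, 316, 158 and 3 counts in plasma-positive replicates, or 0.0886, 1.89, 0 and 0 CPM against 2.97, 16.1, 8.02 and 0.335 CPM. Plasma-positive replicates 2 and 3 were the highest, and plasma-positive replicate 4 lay below plasma-negative replicate 2. The fitted log2 change of Syne1 was 3.68 (SE 1.54), which was not called, and it depended on single libraries, being 7.09 without plasma-negative replicate 2. Plasma-positive replicate 2, the highest Syne1 library, was also the library with the highest neuronal and oligodendrocyte marker sums. Plasma-positive replicate 3, next highest in Syne1 at 8.02 CPM, had a neuronal marker sum of 8.07 CPM. Plasma-positive replicate 1, with a neuronal marker sum of 83.9 CPM, had 2.97 CPM of Syne1. The part of these markers in the Syne1 value was not tested.

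Syne2 had 1, 79, 7 and 12 counts in plasma-negative and 46, 44, 114 and 63 counts in plasma-positive replicates. In CPM this was 0.0443, 4.97, 0.408 and 4.04 against 5.06, 2.24, 5.79 and 7.04. The groups overlapped through plasma-negative replicates 2 and 4, which stood above plasma-positive replicate 2. The log2 change was 1.11 (SE 1.14), not called, and ranged from 0.69 without plasma-negative replicate 1 to 1.87 without plasma-negative replicate 2. Syne1 and Syne2 were thus the 2 genes with a positive fitted change, and for both the spread between libraries within a group was wide beside the difference between the groups.

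Utrn (ENSMUSG00000019820, chr10:12382188-12869365, minus strand, 17108 exon bases in 80 blocks) encodes utrophin, the widely expressed relative of dystrophin. Utrn stood at 24.7, 36.1, 17.8 and 25.9 CPM in plasma-negative and 9.24, 10.6, 23.7 and 27.7 CPM in plasma-positive replicates. Plasma-positive replicates 1 and 2 were below every plasma-negative library, whereas replicates 3 and 4 lay within the plasma-negative range. The mean was 26.1 ± 7.55 against 17.8 ± 9.27 CPM (SD, n = 4), a log2 change of -0.55 (SE 0.42), which was not called. Leaving out 1 library at a time moved it between -0.84, without plasma-positive replicate 4, and -0.34, without plasma-positive replicate 1.

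Per length of exon, on the deposited RPKM scale (reads relative to exon length and library total), Nav3 was the highest of the 7 in both groups. In plasma-negative microglia the order of mean RPKM was Nav3 at 21.04 ± 2.51, Macf1 at 7.17 ± 1.58, Nav2 at 5.25 ± 0.283, Dst at 2.79 ± 0.337, Utrn at 1.11 ± 0.315, Syne2 at 0.0648 ± 0.0684 and Syne1 at 0.00880 ± 0.0165 (SD, n = 4). In plasma-positive microglia the same order held, with Nav3 at 14.4 ± 1.004, Macf1 at 3.37 ± 0.321, Nav2 at 2.93 ± 0.234, Dst at 1.87 ± 0.180, Utrn at 0.826 ± 0.417, Syne2 at 0.149 ± 0.0582 and Syne1 at 0.137 ± 0.139 RPKM. Macf1 and Nav2 overlapped in both groups, as did Syne2 and Syne1, and the other neighbours in the order did not overlap. The place of Nav2 rests on which length it is divided by: rescaled to the longest transcript, a measure added after seeing the data, Nav2 stood at 15.0 RPKM in plasma-negative and 8.36 in plasma-positive microglia, above Macf1 at 9.58 and 4.50 without overlap.

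Longer genes as a whole were lower in the plasma-positive libraries. Among tested genes other than the 7, the median log2 change was 0.09 for 2602 genes under 2000 exon bases, 0.10 for 4079 of 2000 to 4000, -0.01 for 4543 of 4000 to 8000, -0.24 for 1800 of 8000 to 16000 and -0.44 for 245 of 16000 bases and over. Of those 245 long genes, 193 had a change below 0, 15 were called lower and 0 higher. With the linker genes counted in, 251 tested genes reached 16000 bases, of which 7.17% were called lower, 0.0% higher, and 23.9% were lower in every plasma-positive library, against 0.565% and 4.59% of all tested genes. The median over all tested genes was 0.01 and over the 7 linker genes -0.67.

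**Figure D2:**
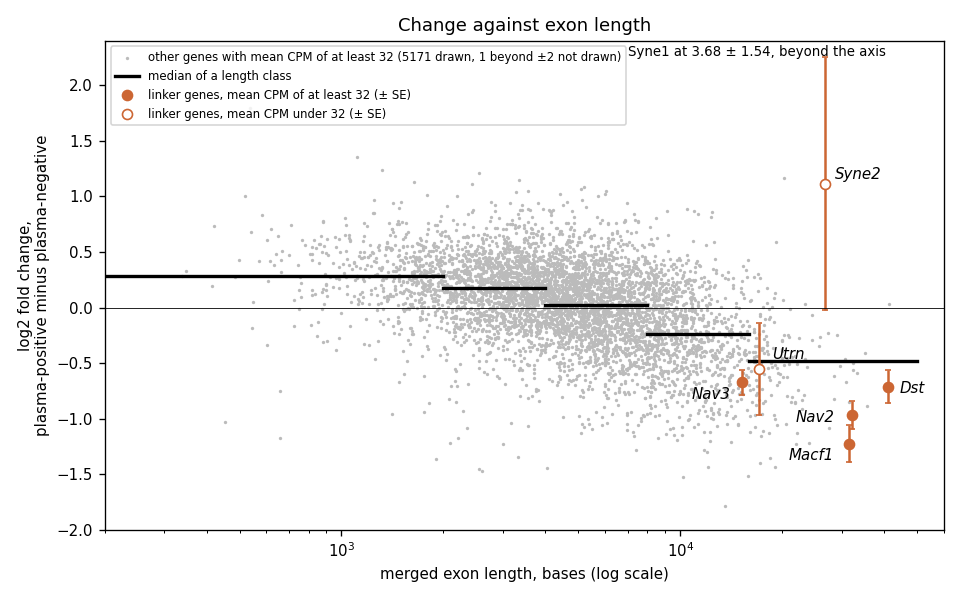
Log2 change between plasma-positive and plasma-negative libraries (vertical axis) against merged exon length in bases (log scale) for genes with a mean of at least 32 CPM (grey), with the median of each length class as a black line and the linker genes in orange with their SE. The medians go from 0.29 under 2000 bases to -0.48 at 16000 bases and over, and Macf1, Nav2 and Dst lie below the median of their class.

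Beside genes with an exon length of 80% to 125% of its own, Macf1 was the furthest down of the 4 called genes. Its log2 change of -1.22 compares with a median of -0.58 and quartiles of -0.86 and -0.40 over 20 such genes, of which 1 was lower. Nav2, at -0.97, compares with a median of -0.59 and quartiles of -0.87 and -0.44 over 19 genes, of which 4 were lower. Dst, at -0.71, had 5 genes of like length, with a median of -0.41 and 1 of them lower. Nav3, at -0.67, sat just inside the lower quartile of -0.68 of its 507 genes of like length, of which 127 were lower. Utrn, at -0.55, lay between the median of -0.40 and the lower quartile of -0.69 of 361 genes, with 123 lower. Syne2, at 1.11, was above 50 of 56 genes of like length, and Syne1, at 3.68, above all 5. These genes and the linker genes share libraries and depth, so the comparison describes where each one stands and is not a test.

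Matching by another length changes which genes each one is set beside. When genes are matched by their longest transcript instead, in the same range of 80% to 125%, Macf1 had 11 genes with a median of -0.24, of which 1 was lower. By that measure 322 genes for Nav2 had a median log2 change of -0.31 and 30 were lower than Nav2. For Nav3 by the same measure 518 genes had a median of -0.30 and 128 were lower. Among the 154 tested genes of at least 16000 exon bases and 32 CPM, Macf1 ranked 5th, Nav2 19th and Dst 46th from the lowest change.

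The 6 most abundant other genes of at least 16000 exon bases give the range at high counts. Ssh2, which encodes a phosphatase acting on the actin-severing protein cofilin, fell by 0.50 on the log2 scale (SE 0.08, edgeR adjusted p = 0.0111), but it was not called without plasma-positive replicate 1. After the length and GC correction Ssh2 was at -0.22, and at -0.02 with the trend drawn from genes of at least 32 CPM, called under neither. Frmd4a, a scaffold of cell polarity, was at -0.46 (SE 0.11, edgeR adjusted p = 0.0640), just outside the threshold. The transcription factor gene Zfhx3 was at -0.27 (SE 0.11) and the RNA-binding protein gene Celf2 at -0.26 (SE 0.13), neither called. Mbnl1, a splicing regulator, was at 0.00 (SE 0.09) and Asph, an aspartate hydroxylase, at 0.05 (SE 0.12). Without a length correction all 6 had changes nearer 0 than those of Macf1, Dst, Nav2 and Nav3. With the trend drawn from genes of at least 32 CPM this no longer held, as Mbnl1 was at 0.53, Asph at 0.50, Celf2 at 0.37, Zfhx3 at 0.21 and Frmd4a at 0.06, the last 3 having turned direction.

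The direction of the length trend was the same in every library of a group. Over 151 other genes of at least 16000 bases and 32 CPM, the median of log2 CPM minus the gene's mean over the 8 libraries was 0.28, 0.25, 0.30 and 0.17 in plasma-negative and -0.33, -0.28, -0.21 and -0.14 in plasma-positive replicates. Over 543 genes under 2000 bases it was -0.15, -0.18, -0.13 and -0.08 against 0.16, 0.14, 0.14 and 0.19. On the same scale Macf1 was at 0.74, 0.74, 0.87 and 0.03 against -0.53, -0.57, -0.52 and -0.77. Plasma-negative replicate 4, with the smallest deviation of long genes in its group, was thus also where Macf1 and Dst (0.04) were nearest to their mean. The 2 orders part in the plasma-positive group, where replicate 4 had the smallest deviation of long genes and the lowest Macf1.

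**Figure D3:**
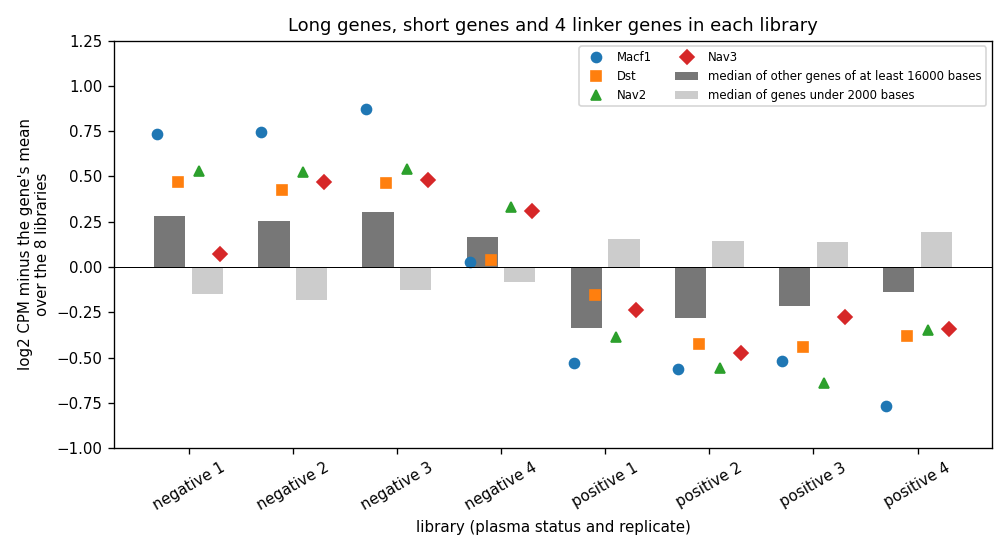
Log2 CPM minus the gene's own mean over the 8 libraries (vertical axis), for Macf1, Dst, Nav2 and Nav3 (points) and as the median of other genes of at least 16000 bases (dark bars) and of genes under 2000 bases (light bars), both of at least 32 CPM, in each library. Long genes are above 0 in the 4 plasma-negative and below 0 in the 4 plasma-positive libraries, and short genes the other way.

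When a smooth trend of exon length and GC content was taken out of each library, the 4 genes kept a lower mean but lost their call. The corrected log2 changes were -0.86 (SE 0.16) for Macf1, -0.72 (SE 0.19) for Nav2, -0.44 (SE 0.16) for Nav3 and -0.36 (SE 0.18) for Dst, with 0.0452% of all tested genes called lower. That correction left part of the trend among well-expressed genes, with a Spearman correlation of length and change of -0.186 over 5176 genes of at least 32 CPM against -0.457 before it. A version added after seeing the data, with the trend drawn from those genes alone, brought the correlation to 0.00 and gave -0.55 (SE 0.15) for Macf1, -0.36 (SE 0.12) for Nav2, -0.28 (SE 0.11) for Nav3 and 0.02 (SE 0.14) for Dst. None of the 7 was called under it, with 0.188% of all tested genes called lower. Utrn went from -0.55 to -0.25 and -0.14 under the 2 corrections, and Syne1 and Syne2 stayed above 0.

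**Figure D4:**
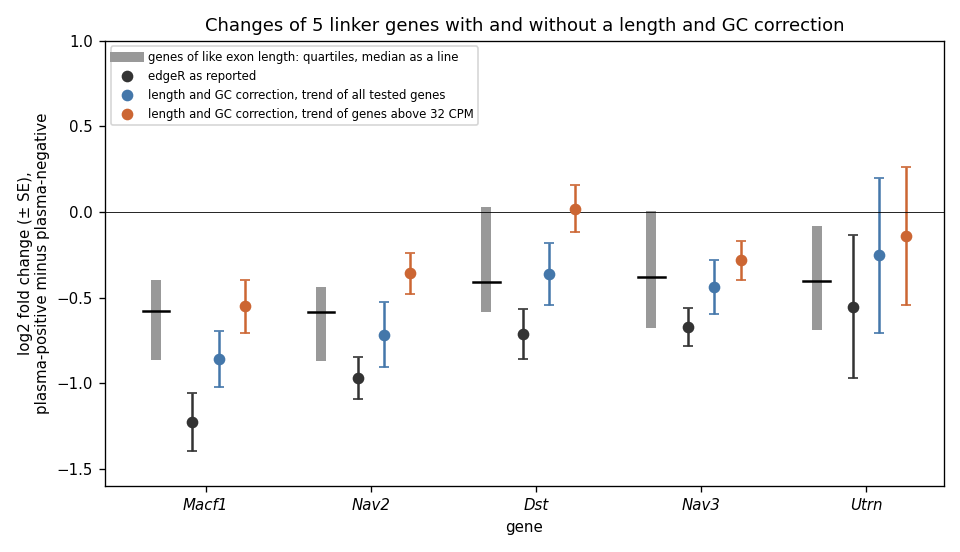
Log2 change with its SE (vertical axis) for 5 linker genes as tested by edgeR (black), after the length and GC correction (blue) and after the correction drawn from genes of at least 32 CPM (orange), beside the quartiles and median of genes of like exon length (grey). Macf1 goes from -1.22 to -0.86 and -0.55, and Dst from -0.71 to -0.36 and 0.02.

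Genes of the proteins that work with the linkers lay on both sides of 0. Of 57 partner genes in 4 lists, 41 were tested and edgeR called 0, beside 1.41% of all tested genes, while 8 had an unadjusted p under 0.05, as did 13.8% of all tested genes. DESeq2, which called 6.49% of all genes, called 3 of them, with Clip1 lower and Lbr higher among them, and limma-voom, which called 1.97%, called 0. Over the 41 genes the median log2 change was 0.15, with 18 below 0, beside 0.01 over all tested genes.

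In the list of spectrins, plakins and ankyrins, relatives of the spectraplakins and their membrane anchors, 7 of 13 genes were tested and 3 were below 0, with a median of 0.14. Ank2, an ankyrin gene of 35004 exon bases and so of like length to Macf1 and Dst, was at 88.5 ± 26.3 CPM in plasma-negative and 66.4 ± 11.4 in plasma-positive microglia (SD, n = 4), a log2 change of -0.41 (SE 0.24, edgeR adjusted p = 0.503). After the length and GC correction Ank2 was at -0.09, and it turned to 0.26 with the trend drawn from genes of at least 32 CPM. Ank3, an ankyrin gene of 34838 exon bases, was at 0.522 ± 0.797 and 5.78 ± 6.82 CPM, a log2 change of 3.33 (SE 1.65, edgeR adjusted p = 0.410) on the other side of 0. In the list of nuclear envelope genes, which serve the nesprins, 11 of 13 were tested and 4 were below 0, with a median of 0.31. The SUN protein genes Sun1 and Sun2 were at -0.30 (SE 0.58) and -0.66 (SE 0.38), not called. Tor1aip1 and Tor1aip2, which encode activators of torsin in the nuclear envelope, were at -0.15 (SE 0.16) and 0.15 (SE 0.13). Lbr, which encodes the lamin B receptor, had the lowest adjusted p of all partners, at 0.73 (SE 0.20, edgeR adjusted p = 0.106).

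In the dystrophin complex list, which surrounds utrophin, 7 of 13 genes were tested and 3 were below 0, with a median of 0.16. Sgce, a sarcoglycan gene, was at 163 ± 32.7 and 159 ± 19.6 CPM (SD, n = 4), and Dag1, the gene of dystroglycan itself, at 48.9 ± 10.7 and 54.5 ± 10.8 CPM, neither called. In the list of microtubule end genes, which work beside navigators and spectraplakins, 16 of 18 were tested and 8 were below 0, with a median of 0.05. Mapre1, which encodes the end-binding protein EB1, was at 229 ± 43.8 and 252 ± 21.96 CPM, a log2 change of 0.14 (SE 0.15). Clip1 and Clasp2, microtubule end genes with long exons, were at -0.43 (SE 0.14, edgeR adjusted p = 0.169) and -0.42 (SE 0.19, edgeR adjusted p = 0.346). After the length and GC correction those values were -0.25 and -0.13. The trend drawn from genes of at least 32 CPM took them to -0.14 and 0.0004. Nav1, the remaining navigator, was at 20.5 ± 7.31 and 16.9 ± 7.52 CPM (SD, n = 4), a log2 change of -0.28 (SE 0.42) that was not called. Nav1 was at -0.04 after the length and GC correction and turned to 0.13 with the trend drawn from genes of at least 32 CPM.

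**Figure D5:**
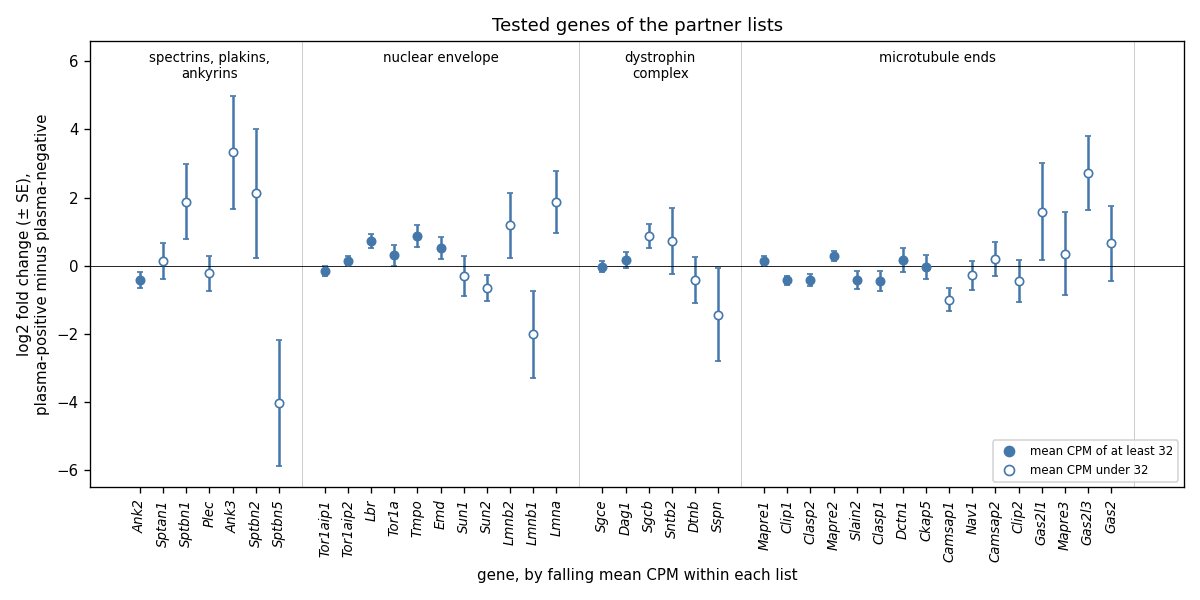
Log2 change with its SE (vertical axis) for 40 of the 41 tested partner genes in 4 lists, ordered by falling mean CPM within each list, filled where the mean is at least 32 CPM. Genes lie on both sides of 0 in every list and none passed the edgeR threshold.

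The genes whose log2 CPM followed each linker gene most closely over the 8 libraries are given as a description, since those libraries share the split into 2 groups and their depths. For Macf1 they were Ube3a (Pearson r = 0.996), Adap2 (0.983) and Dst (0.974), and for Dst they were Lrrk1 (0.982), Macf1 and Zfp638 (0.968). For Nav2 they were A930001M01Rik (0.986), Pag1 (0.977) and Malat1 (0.976), and for Nav3 they were Ash1l (0.988), Tmf1 (0.972) and Wbp4 (0.962). Of these, Adap2 is short, at 1785 exon bases, and its log2 change was -0.35 (SE 0.09). Once the group means were taken out, Macf1 and Dst had r = 0.828, Dst and Nav2 0.771 and Macf1 and Nav2 0.417, and Nav3 had 0.172 with Macf1, 0.175 with Dst and 0.138 with Nav2. These within-group values rest in part on plasma-negative replicate 4. Without it, a check added after seeing the data, they were 0.196 for Macf1 and Dst, 0.620 for Dst and Nav2 and -0.549 for Macf1 and Nav2 over 7 libraries, and 0.320, 0.213 and 0.119 for Nav3 with Macf1, Dst and Nav2.

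The weakly expressed genes followed other patterns. Syne1 was most like Rpn1 (r = 0.936), Ap1m1 (0.934) and Sdha (0.915), Syne2 most like Pigt (0.967), Prr14 (0.963) and Rab11b (0.956), and the genes close to Utrn included Klhl36 (0.945) and Lpp (0.918). With 8 libraries and low counts these are values of these libraries alone.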

How the data were processed

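The authors deposited 2 tables, per the file headers: raw read counts of each gene in each library, and RPKM values of the same genes, which divide those counts by exon length and a library total. The submitters' processing notes name bcl2fastq, Trim Galore, STAR, HTSeq and build mm10, without versions. Strand and the handling of multi-mapping reads are not given in the sources used here. The deposited standard deviation columns were not used. Groups and replicate numbers came from the sample titles. No 2 libraries held identical counts. Exon lengths and GC content (of the longest transcript) came from GENCODE M21 (GRCm38), which held 35546 of the 35583 identifiers (99.9%). For 99.4% of values with at least 50 counts, the deposited tables implied that exon length within 1%.

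Counts were tested with edgeR 4.0.16 (R 4.3.3; TMM factors, default filter by group, quasi-likelihood F test, no covariate) and p-values were adjusted by Benjamini-Hochberg over 13277 genes. SE was taken as the log2 change over the square root of F, and log2 CPM used a prior count of 2. The text names all 7 linker genes, called partner genes and the 6 most abundant uncalled ones, the 6 most abundant other genes of at least 16000 exon bases, 3 genes of like pattern per linker gene (mean of at least 32 CPM), and genes sharing exon bases. Some items are not reported here. Lbr, Sun1, Sun2, Ank2, Ank3, Dag1, Nav1 and Csf1r fall outside that rule and were chosen after their values were seen. The linker genes and all lists were chosen with earlier results of these data known. On simulated counts for 13277 genes with changes of 2 on the log2 scale, 111 of 190 tested changed genes (58.4%) were called, with 2 false calls. The simulated counts held no length trend, and their changes were larger than those fitted for Macf1, Dst, Nav2 and Nav3. These rates therefore do not carry over to the linker genes. Alternatives were other normalizations, filters and depths, DESeq2 1.42.0, limma-voom and limma on log2 RPKM (limma 3.58.1), length and GC corrections (loess, span 0.3), the replicate number as a block, overlapping genes left out, and each library left out. The floor of 3 counts covers counting error only, as amplified reads that carry no molecular identifier are not separate molecules.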

Additional observations from a re-analysis of the deposited data

Results flagged for a closer look

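A library stood far from the other 3 of its group in 3 of 44 groups of 4 libraries checked, where chance gives about 5%. Dst in plasma-negative replicate 4 was at 127.2 CPM, with the nearest library of the group at 165.9 CPM. Nav2 in the same library was at 207.9 CPM, with the nearest at 238.3 CPM. Both values are the lowest of the plasma-negative group and lie above all plasma-positive libraries. Syne1 in plasma-negative replicate 2 was at 1.888 CPM, with the nearest at 0.08855 CPM.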

How the results depend on the processing

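The number of linker genes called lower was 4 under the other normalizations and filters, thinning to the smallest total, DESeq2 and limma-voom, and 0 were called higher under any. The share of all genes called lower, 0.565% as reported, ranged there from 0.408% without a filter and 0.557% with upper-quartile factors to 1.23% with library totals and 3.26% with DESeq2. The number of linker genes called lower was 0 with limma on log2(RPKM + 1) or log2(RPKM + 0.1), beside 0.444% and 0.467% of all genes. That number was also 0 with the length and GC correction and with length alone (0.0452% of all genes each). It was 0 as well with length and GC together with the replicate block (0.00753%). With the trend of genes of at least 32 CPM, chosen after seeing the data, it was again 0 (0.188%). It was 2 with overlapping genes left out (0.936% of all genes), which removes Dst and Nav2 themselves. Leaving out 1 library gave 2 to 4. The median log2 change over the 7 genes, -0.67, became -0.40 with log2(RPKM + 1), -0.36 with the length and GC correction, -0.27 with length alone, -0.42 with length, GC and the replicate block and -0.14 with the trend of genes of at least 32 CPM, and was -0.70 to -0.62 without 1 library. Under that last trend Dst reversed to 0.0195 and the median of genes of at least 16000 bases, -0.44, to 0.0780; the length and GC correction took the latter to -0.11. Partner genes called went from 0 to 3 with DESeq2 and to 2 and 2 with limma on the RPKM values (Lbr higher among them), and were 0 without any 1 library. The all-gene median moved to -0.11 with library totals only, 0.11 with log2(RPKM + 1) and 0.16 with log2(RPKM + 0.1). With a mean count of at least 50, or after thinning, 6 of the 7 genes were tested. The cause of these shifts was not tested.

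Same-numbered libraries had a mean correlation of 0.0167 (0.0109 to 0.0315) in their deviations from group means. Libraries of different number had a mean of -0.00556 (-0.04932 to 0.04925), and 3 of 8 libraries correlated best with their own number. Values this small cannot decide whether libraries of the same number share an animal. With the replicate block, 2 linker genes were called, Macf1 and Nav2, and 74 genes in all against 187 (75 lower, 112 higher) without it. That split was 163 lower and 64 higher with library totals only, 59 and 388 with log2(RPKM + 1) and 62 and 370 with log2(RPKM + 0.1). Counts called over all genes also differed by over 1.5 times with DESeq2 (965), limma on RPKM (447 and 432), the length and GC correction (15; 3 with the replicate block), length alone (16), the trend of genes of at least 32 CPM (76) and 7 of the 8 fits without 1 library (66 to 93; 203 without plasma-negative replicate 4). Syne1 and Syne2 had at most 30 and 79 counts in a plasma-negative library and spread widely between libraries of like depth, which limits what their changes can show.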
